A study of Mus musculus with 7 samples.

Results

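The genes described here are 10 members of the inflammatory cytokine network. They comprise the IL-1 family ligands Il1a, Il1b, Il18 and Il33, the IL-1 antagonist Il1rn, the IL-1 receptors Il1r1 and Il1r2, the cytokines Il6 and Tnf, and Ptgs2, which encodes cyclooxygenase-2. They were chosen by gene symbol, and all 10 were found among the 28233 genes of the expression table. The samples were 7 B16mhgp100 tumours, derived from the mouse B16 melanoma and implanted under the skin of C57BL/6 mice. Tumour cells carried either Cr1l over-expression (Cr1l 1 to Cr1l 4, n = 4) or the vector (Vec 5 to Vec 7, n = 3), and all hosts were given anti-PD1. Dosing began on day 10 after inoculation with 200 µg and was repeated 2 times a week, 4 doses in all, with harvest 1 day later. Cr1l encodes Crry, a membrane regulator of complement in mice. The sources used here do not give the age or sex of the mice, the promoter driving Cr1l or whether a line was a single clone. A second number stands in the names of Vec 6 and Vec 7, and the labels do not say what it means. Tumours without the antibody were not analysed here.

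IL-1α and IL-1β signal through the receptor encoded by Il1r1. The antagonist encoded by Il1rn occupies that receptor without signalling, and Il1r2 encodes a decoy that captures ligand. IL-1β and IL-18 are made as inactive precursors that caspase-1 cleaves in inflammasomes. IL-33 is a nuclear alarmin of stromal and barrier cells that acts, once released, through ST2, encoded by Il1rl1. IL-6 and TNF are released chiefly by myeloid and stromal cells downstream of NF-κB, and cyclooxygenase-2 supplies prostaglandins in the same response. In tumours these mediators are known for recruiting and conditioning myeloid cells.

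Levels are given in TPM, the relative abundance of transcripts corrected for length, so that genes can be set side by side. Cr1l itself was at 76.37, 78.56, 77.91 and 83.57 TPM in Cr1l tumours and at 52.41, 46.29 and 54.94 TPM in Vec tumours, each on the side of its label. The 8 markers of melanocytes and B16 melanoma summed to 20406, 18950, 9173 and 10457 TPM in Cr1l 1 to Cr1l 4. In Vec 5 to Vec 7 they summed to 19237, 13349 and 20749 TPM. Cr1l 3 and Cr1l 4 were thus the lowest tumours for these markers. TPM is relative, so a lower share of tumour RNA raises the TPM of other genes. Levels of macrophage and fibroblast markers differed widely within both groups. Cr1l 3 and Cr1l 4 lay at 82.2 and 67.1 on a first principal component with 49.5% of the variance, and the other 5 tumours lay between -56.9 and -14.9. The 15 macrophage and monocyte markers summed to 615.52, 1044.18, 6027.34 and 5069.27 TPM in Cr1l 1 to Cr1l 4 and to 1637.49, 862.98 and 520.25 TPM in Vec 5 to Vec 7. The 10 fibroblast markers summed to 789.89, 1174.9, 6278.99 and 4974.98 TPM in Cr1l tumours and to 1331.07, 578.05 and 167.72 TPM in Vec tumours. All markers of both lists were detected. In bulk tissue, fewer cells of a type and less RNA per cell cannot be told apart.

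The 10 genes varied widely within both groups, and most followed a shared order of tumours. Cr1l 3 and Cr1l 4 were both above the other 5 tumours for 9 of the 10 genes, Il6 being the exception, an order shown by 19.7% of all 14954 genes tested. Vec 5 was above both Cr1l 1 and Cr1l 2 for 9 of the 10, all but Il1a, against 42.8% of genes. All 4 Cr1l tumours were above both Vec 6 and Vec 7 for Il1b, Il1rn, Il33, Il6 and Ptgs2, 5 of the 10, against 18.1% of genes. The 5 red cell markers, chiefly globins, summed to 219.21, 388.52, 297.34 and 105.95 TPM in Cr1l tumours and to 416.47, 41285.14 and 9694.18 TPM in Vec tumours, highest in Vec 6 and Vec 7. With TPM rescaled without mitochondrial, globin and immunoglobulin genes, the log2 fold changes of Il33, Il1b, Ptgs2, Il1rn and Il6 were 2.87, 2.32, 1.83, 1.63 and -0.23, against 2.82, 2.25, 1.76, 1.58 and -0.27 as deposited. Any other part of blood in these levels was not tested. Vec 7 was lowest of all tumours for 7 of the 10, against 15.4% of genes. The 10 genes together took 59.0, 81.1, 307 and 312 TPM in Cr1l tumours and 127, 44.0 and 25.2 TPM in Vec tumours, with the same 2 tumours highest as for the macrophage and fibroblast markers. The summed markers of neutrophils, dendritic cells, mast cells, T and NK cells and B cells were also highest in those 2 tumours. Endothelial markers were highest in Cr1l 3 (325.55 TPM), but in Cr1l 4 (105.12 TPM) they were below Vec 5 (178.47 TPM). A fit with the mean of the macrophage markers as a covariate is given with several genes. The part of fibroblasts and of the other cell types in these levels was not tested.

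**Figure D1:**
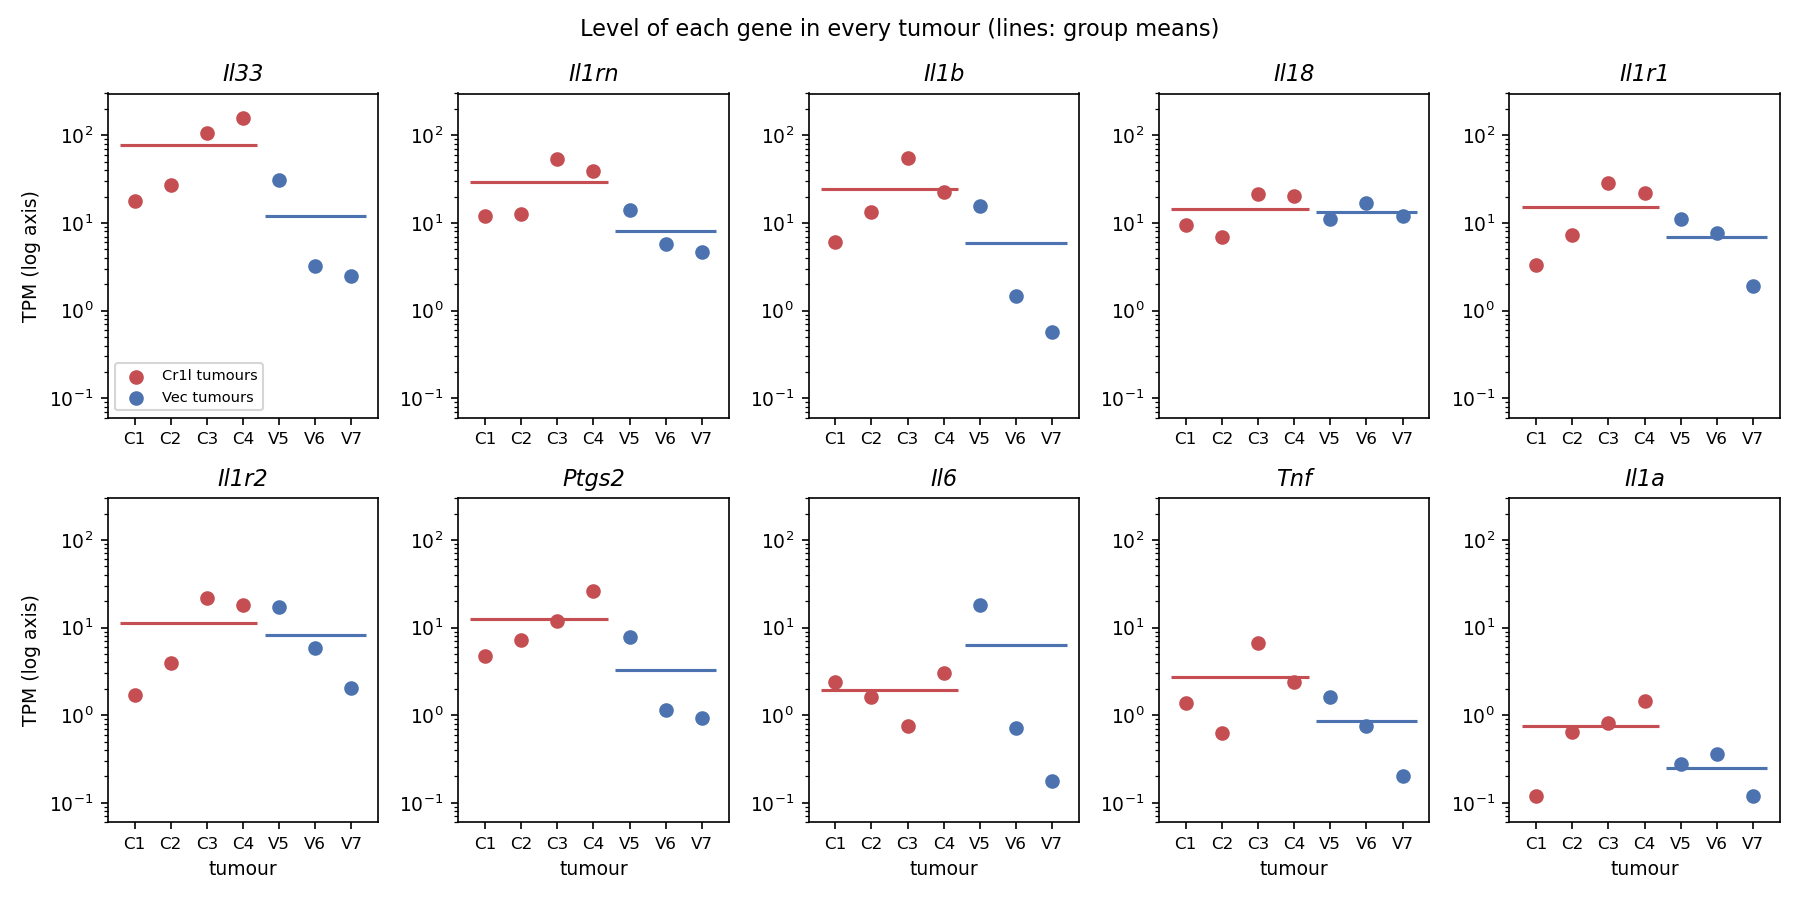
Level of each gene in TPM on a log axis in each tumour, with Cr1l tumours (C1 to C4) left of Vec tumours (V5 to V7) and horizontal lines at the group means. Il33 reached 156.11 TPM in Cr1l 4 and 2.46 TPM in Vec 7, and Il6 peaked at 18.15 TPM in Vec 5.

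Of the 9 genes that passed the filter on low values (averaging 1 TPM or more across tumours), 0 passed an adjusted p of 0.05 in either direction by limma, a linear model on log2(TPM + 1) with Benjamini-Hochberg adjustment over all genes tested. The background was 0.0134% of genes called, all of them lower in Cr1l tumours. Cr1l itself did not pass (log2 fold change 0.62, adjusted p = 0.119 by limma), so a gene that did not pass is not thereby shown to be unchanged. At an unadjusted p under 0.05, 4 of the 9 were higher in Cr1l tumours, namely Il33, Il1rn, Ptgs2 and Il1b, and 0 were lower. Over all genes tested 9.49% were higher and 6.07% lower at that level, 15.6% in all. The fold change was above 0 for 7 of the 9 genes, with a median log2 value of 0.90, and for 55.4% of all genes tested, with a median of 0.05. Without the filter the median was 0.87 over the 10 genes and 0.03 over all genes. None of the 10 genes had groups that did not overlap, whereas 9.29% of genes were higher and 6.67% lower without overlap. In the authors' deposited table, which holds their DESeq2 comparison, 1 of the 9 genes with an adjusted p was called, Il1rn, as higher in Cr1l tumours. That table called 4.74% of genes higher and 2.27% lower, 7.02% in all. Cr1l was among those it called higher (0.57, adjusted p = 0.00636).

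Il33 was the most abundant of the 10 genes in all 4 Cr1l tumours and in Vec 5. It stood at 17.9, 27.04, 105.79 and 156.11 TPM in Cr1l tumours and at 30.55, 3.26 and 2.46 TPM in Vec tumours. Cr1l 3 and Cr1l 4 were far above the rest, Vec 5 lay just above Cr1l 2, and Vec 6 and Vec 7 were low, so the groups overlapped through Vec 5. The means were 76.7 ± 66.0 TPM in Cr1l tumours (SD, n = 4) and 12.1 ± 16 TPM in Vec tumours (SD, n = 3). The log2 fold change was 2.82 (95% interval 0.55 to 5.09, adjusted p = 0.264 by limma), the largest of the 9. The estimate was 3.83 without Vec 5 (adjusted p = 0.283 by limma), 0.79 without Vec 6 and Vec 7 together, and 1.57 without Cr1l 3 and Cr1l 4 together. With the macrophage marker mean as a covariate it was 1.36 (adjusted p = 0.243 by limma). Il33 made up between 30.3% and 50.1% of the summed TPM of the 10 genes in Cr1l tumours, 24.0% in Vec 5, 7.41% in Vec 6 and 9.74% in Vec 7.

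The gene whose profile over the 7 tumours lay nearest to that of Il33, among 12880 candidates, was Il1rl1, which encodes ST2, the IL-33 receptor. Likeness was measured as the root mean square difference of log2(TPM + 1) values standardised over the tumours, which was 0.086 for this pair. Il1rl1 stood at 3.13, 3.94, 12.16 and 14.25 TPM in Cr1l tumours and at 5.21, 0.48 and 0.59 TPM in Vec tumours, with the same low pair of tumours. Its log2 fold change was 1.71 (adjusted p = 0.293 by limma). The next nearest were Nos2, the inducible nitric oxide synthase of myeloid cells (0.105), and Inhba, which encodes an activin subunit (0.147). The distance describes these 7 tumours alone.

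Il1b, the main secreted agonist of the IL-1 receptor, stood at 6.05, 13.36, 55.28 and 22.45 TPM in Cr1l tumours and at 15.81, 1.46 and 0.57 TPM in Vec tumours. Cr1l 3 was highest, and Vec 5 exceeded both Cr1l 1 and Cr1l 2, so the groups overlapped. The means were 24.3 ± 21.7 TPM in Cr1l tumours (SD, n = 4) and 5.95 ± 8.55 TPM in Vec tumours (SD, n = 3), a log2 fold change of 2.25 (95% interval 0.10 to 4.41, adjusted p = 0.310 by limma). The fold change was 3.28 without Vec 5 and 0.19 without Vec 6 and Vec 7 together. With the macrophage covariate it was 0.96. Profiles near to that of Il1b included those of Zup1, a deubiquitinase (0.167), and Lpp, a focal adhesion protein (0.167). Among the 10 genes Il33 was nearest to Il1b (0.320).

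Il1a, the cell-associated agonist encoded beside Il1b on chromosome 2, was scarce. It stood at 0.12, 0.64, 0.82 and 1.44 TPM in Cr1l tumours and at 0.28, 0.36 and 0.12 TPM in Vec tumours. Its mean of 0.54 TPM over the tumours was under the filter, so limma gave it no test. Cr1l 2, Cr1l 3 and Cr1l 4 were above every Vec tumour, and Cr1l 1 was level with Vec 7, the lowest. The authors' deposited table gave it 1.52 on the log2 scale (adjusted p = 0.335).

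Il18, whose product drives interferon-γ release, stood at 9.42, 6.87, 21.52 and 20.57 TPM in Cr1l tumours and at 11.14, 17.1 and 12.1 TPM in Vec tumours. All 3 Vec tumours lay between the lower and the upper pair of Cr1l tumours. The means were 14.6 ± 7.53 TPM in Cr1l tumours (SD, n = 4) and 13.4 ± 3.20 TPM in Vec tumours (SD, n = 3), and the log2 fold change was -0.01 (95% interval -0.94 to 0.92, adjusted p = 0.993 by limma). It was -0.65 without Cr1l 3 and Cr1l 4 together and -0.47 with the macrophage covariate. That pair was left out after the values were seen, and the Cr1l tumours that remain are those below all Vec tumours. No p-value is therefore given for that fit. The highest level of Il18 was 3.13 times its lowest, the narrowest range of the 10 genes. The same ratio was 97.0 for Il1b and 63.5 for Il33. Il18 was the most abundant of the 10 in Vec 6 and Vec 7, where Il33 was low. The nearest profiles to Il18 were those of Plekhg5 (0.231), Khk, which encodes ketohexokinase (0.235), and Arpc3, an Arp2/3 complex subunit (0.243). Keratinocytes are another known source of IL-18, and the 8 keratinocyte markers summed to 1.12, 0.41, 69.48 and 2.41 TPM in Cr1l tumours and to 72.62, 954.15 and 8.28 TPM in Vec tumours. Their part in the Il18 level was not tested. Il18bp, which encodes the secreted IL-18 inhibitor, was at 20.4, 17.75, 67.71 and 51.92 TPM in Cr1l tumours and at 62.32, 36.27 and 36.85 TPM in Vec tumours, above Il18 in each tumour. Its log2 fold change was -0.36 (adjusted p = 0.723 by limma).

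Il1rn, the receptor antagonist, stood at 12.06, 12.57, 54.14 and 38.94 TPM in Cr1l tumours and at 13.95, 5.78 and 4.71 TPM in Vec tumours. Vec 5 lay just above Cr1l 1 and Cr1l 2, and the other Vec tumours were below all Cr1l tumours. The means were 29.4 ± 20.7 TPM in Cr1l tumours (SD, n = 4) and 8.15 ± 5.05 TPM in Vec tumours (SD, n = 3), a log2 fold change of 1.58 (95% interval 0.21 to 2.96, adjusted p = 0.281 by limma). In the authors' deposited table its log2 value was 1.85 (SE 0.61, adjusted p = 0.0405), past the threshold there and not by limma. Over the alternatives of the limma fit the estimate ran from 0.66 to 2.01 and the adjusted p from 0.212 to 0.856. The nearest profiles were those of Glipr2 (0.092), Gpr176, an orphan G protein-coupled receptor (0.093), and B4galt2, a galactosyltransferase (0.098).

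**Figure D2:**
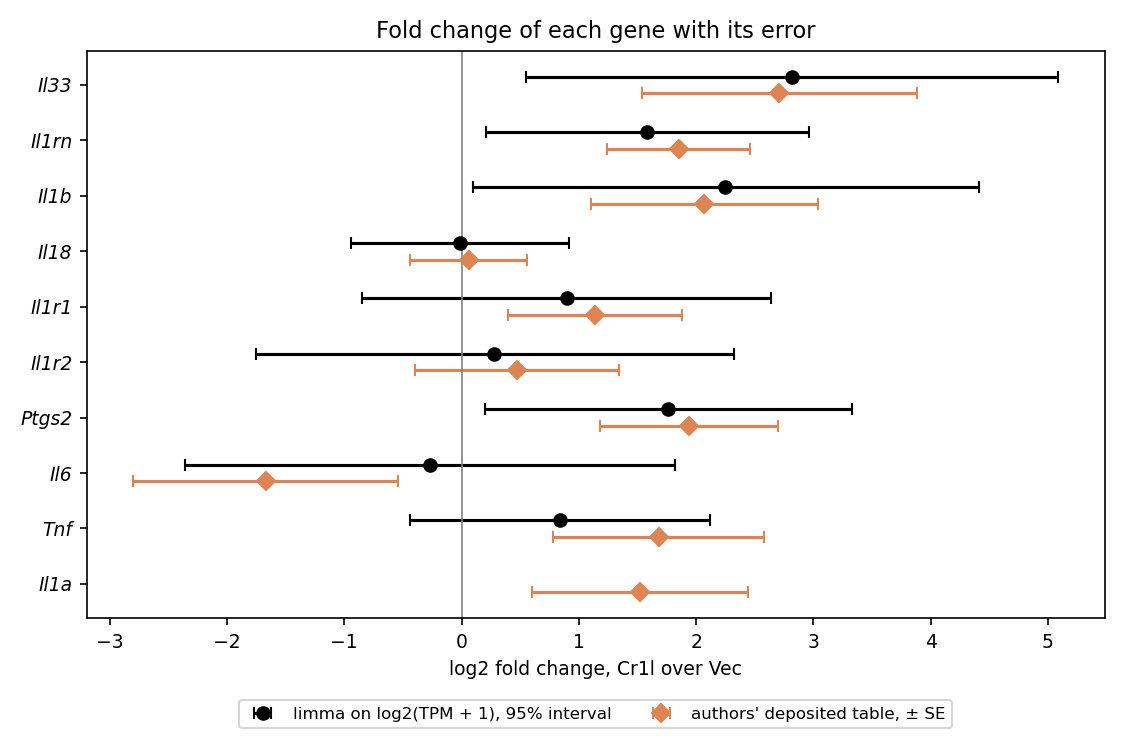
Log2 fold changes of Cr1l over Vec tumours for each gene. Black circles are limma estimates on log2(TPM + 1) with 95% intervals (none for Il1a), and orange diamonds are the authors' deposited DESeq2 values with their SE. The intervals of Il33, Il1rn, Il1b and Ptgs2 lie above 0 before adjustment for the number of genes tested.

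The balance of antagonist and agonist was followed as a ratio, and its groups overlapped. The log2 ratio of Il1rn to Il1b, with 1 TPM added to each, was 0.89, -0.08, -0.03 and 0.77 in Cr1l tumours and -0.17, 1.46 and 1.86 in Vec tumours. Vec 6 and Vec 7 had the highest ratios and Vec 5 the lowest. The means were 0.39 ± 0.51 in Cr1l tumours (SD, n = 4) and 1.05 ± 1.08 in Vec tumours (SD, n = 3), a difference of -0.67 (exact permutation test over 35 splits, two-sided p = 0.371, 0.371 adjusted over the 2 ratios tested). The smallest p that 35 splits allow is 0.0286. Without Vec 6 and Vec 7 together the difference was 0.56, with the opposite sign.

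Il1r1, the signalling receptor, stood at 3.3, 7.3, 28.7 and 22.23 TPM in Cr1l tumours and at 10.98, 7.64 and 1.93 TPM in Vec tumours. Vec 5 and Vec 6 lay above Cr1l 1 and Cr1l 2 and below the other Cr1l tumours. The log2 fold change was 0.90 (95% interval -0.85 to 2.64, adjusted p = 0.564 by limma), and it was -0.17 without Cr1l 3 and Cr1l 4 together and -0.26 with the macrophage covariate. Its nearest profiles were those of Slc36a3os, a transcript antisense to Slc36a3 by its name (0.098), Fam20a, a secretory pathway pseudokinase (0.114), and Egr2, an immediate-early factor (0.116).

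Il1r2, the decoy receptor typical of neutrophils and some macrophages, stood at 1.69, 3.98, 21.7 and 18.3 TPM in Cr1l tumours and at 17.04, 5.78 and 2.04 TPM in Vec tumours. Vec 5 stood with Cr1l 3 and Cr1l 4, and the remaining tumours of both groups were low. The log2 fold change was 0.28 (95% interval -1.75 to 2.32, adjusted p = 0.887 by limma). It was -1.11 with the macrophage covariate (unadjusted p = 0.002, adjusted p = 0.129 by limma) and -0.97 without Cr1l 3 and Cr1l 4 together. The nearest profiles were those of Cytip, a regulator of leukocyte adhesion (0.142), Osm, a myeloid cytokine of the IL-6 family (0.163), and Hdgfl3 (0.179). The 10 neutrophil markers summed to 8.43, 23.98, 203.58 and 75.11 TPM in Cr1l tumours and to 19.41, 32.69 and 12.25 TPM in Vec tumours, with 3 of the 10 below 1 TPM in every tumour. Their part in the Il1r2 level was not tested.

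The decoy was also set against the signalling receptor. The log2 ratio of Il1r2 to Il1r1 was -0.68, -0.74, -0.39 and -0.27 in Cr1l tumours and 0.59, -0.35 and 0.05 in Vec tumours. All 4 Cr1l tumours had more Il1r1 than Il1r2, and so did Vec 6, whose ratio fell between those of Cr1l 3 and Cr1l 4. The means were -0.52 ± 0.23 in Cr1l tumours (SD, n = 4) and 0.10 ± 0.47 in Vec tumours (SD, n = 3). The difference of -0.62 did not pass the exact permutation test over 35 splits (two-sided p = 0.0571, 0.114 adjusted over the 2 ratios). Leaving out 1 tumour gave differences of -0.84 to -0.37, with -0.37 without Vec 5.

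**Figure D3:**
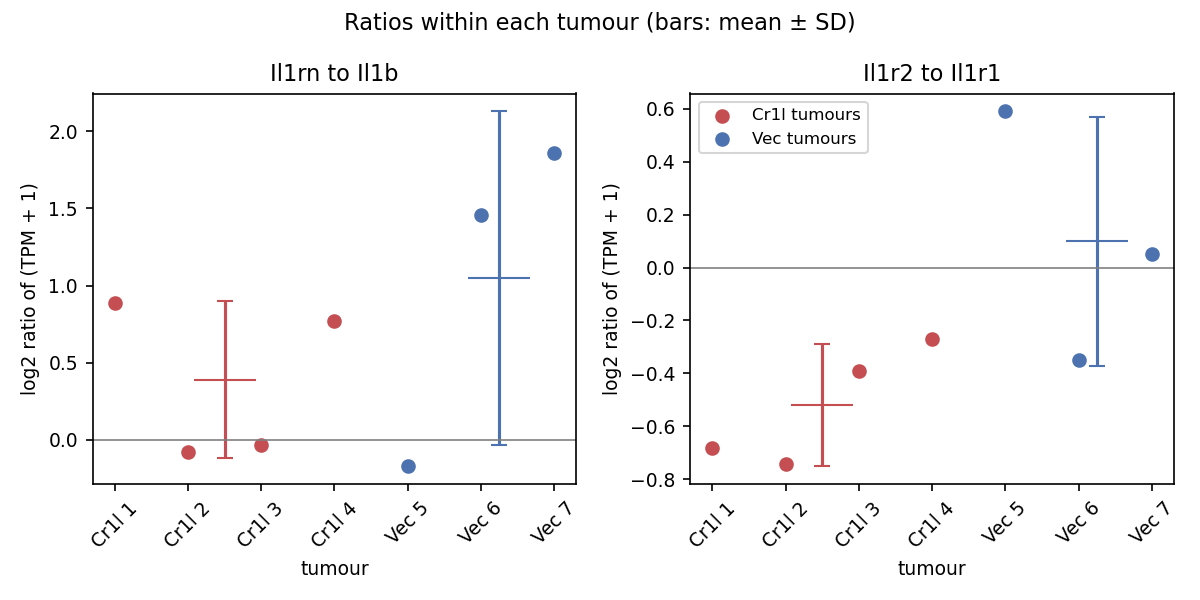
Log2 ratios of (TPM + 1) within each tumour, Il1rn to Il1b on the left and Il1r2 to Il1r1 on the right, with group means ± SD as bars. The Il1r2 to Il1r1 ratio was below 0 in all 4 Cr1l tumours and in Vec 6.

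Il1r2 and Il1r1 head a cluster of receptor genes on chromosome 1, and their neighbours Il1rl2, Il1rl1 and Il18r1 (the last named for this position after its values were seen) also peaked in Cr1l 3 or Cr1l 4. In each neighbour both tumours were above the other 5, an order shown by 19.7% of all genes tested. Listed genes outside the cluster, such as Myd88, Pycard and Tnfrsf1b, showed it too, and a part of the position was not tested. Il1rl2, the IL-36 receptor, stood at 1.58, 2.65, 13.43 and 16.46 TPM in Cr1l tumours and at 4.27, 2.38 and 0.58 TPM in Vec tumours. Il18r1, the IL-18 receptor, stood at 0.71, 1.11, 9.02 and 2.20 TPM in Cr1l tumours and at 1.31, 1.11 and 0.50 TPM in Vec tumours. Its partner Il18rap stood at 1.24, 1.05, 14.21 and 7.21 TPM in Cr1l tumours and at 1.89, 2.18 and 0.67 TPM in Vec tumours. Groups overlapped for all of them. The shared co-receptor Il1rap, named after its values were seen, was not highest in either tumour, with 6.54, 7.84, 6.71 and 6.31 TPM in Cr1l tumours and 8.50, 6.04 and 5.51 TPM in Vec tumours (log2 fold change 0.05, adjusted p = 0.921 by limma). Sigirr, which encodes an inhibitory receptor of the family, was lower in every Cr1l tumour, at 13.31, 11.44, 13.61 and 9.43 TPM in Cr1l tumours against 20.65, 17.58 and 23.30 TPM in Vec tumours. Its log2 fold change was -0.74 (adjusted p = 0.190 by limma), and the authors' deposited table called it lower (-0.84, adjusted p = 0.00763).

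Il6 was highest in a vector tumour. It stood at 2.39, 1.60, 0.76 and 3.01 TPM in Cr1l tumours and at 18.15, 0.72 and 0.18 TPM in Vec tumours. Vec 5 was far above every other tumour, all Cr1l tumours were low, and Cr1l 3, the tumour with most Il1b, was the lowest of them. The means were 1.94 ± 0.976 TPM in Cr1l tumours (SD, n = 4) and 6.35 ± 10.2 TPM in Vec tumours (SD, n = 3), a log2 fold change of -0.27 (95% interval -2.36 to 1.82, adjusted p = 0.895 by limma). Its sign rested on Vec 5: the estimate was 0.98 without that tumour, and -2.77 with Vec 5 as the sole vector tumour (adjusted p = 0.577 by limma), which is then assumed to vary like the Cr1l tumours. The authors' deposited table gave -1.67 with no p-value. Il6 took 14.2% of the summed TPM of the 10 genes in Vec 5 and between 0.247% and 4.05% in the other tumours. Its nearest profiles were those of Sh3bp4 (0.178), Klhdc1 (0.245) and Fnip2 (0.250).

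Tnf was low throughout, at 1.37, 0.62, 6.64 and 2.42 TPM in Cr1l tumours and 1.63, 0.76 and 0.20 TPM in Vec tumours. Cr1l 3 was highest, and Cr1l 2 lay below Vec 5 and Vec 6. The log2 fold change was 0.84 (95% interval -0.44 to 2.12, adjusted p = 0.471 by limma). It was 0.41 without Cr1l 3, 0.27 without Vec 6 and Vec 7 together, and 0.15 both with the macrophage covariate and without Cr1l 3 and Cr1l 4 together. Its nearest profile was that of Lck, the proximal kinase of the T cell receptor (0.109), followed by Zbtb7a (0.164) and Rasgef1b (0.182). The 8 T and NK cell markers summed to 13.14, 8.93, 127.1 and 51.56 TPM in Cr1l tumours and to 20.94, 24.04 and 10.15 TPM in Vec tumours, also highest in Cr1l 3 and Cr1l 4, and their part in the Tnf level was not tested. Tnf lies between Ltb and Lta on chromosome 17, named for this position after their values were seen. Ltb, a lymphotoxin subunit of lymphocytes, stood at 2.47, 1.34, 35.82 and 9.10 TPM in Cr1l tumours and at 1.38, 4.22 and 2.07 TPM in Vec tumours, and Lta stayed below 1 TPM in all tumours but Cr1l 3.

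Ptgs2 stood at 4.75, 7.14, 11.97 and 26.06 TPM in Cr1l tumours and at 7.86, 1.16 and 0.94 TPM in Vec tumours. Cr1l 4 was highest, Vec 5 lay among the Cr1l tumours, and Vec 6 and Vec 7 were below them all. The means were 12.5 ± 9.54 TPM in Cr1l tumours (SD, n = 4) and 3.32 ± 3.93 TPM in Vec tumours (SD, n = 3), a log2 fold change of 1.76 (95% interval 0.20 to 3.33, adjusted p = 0.288 by limma). The estimate was 2.47 without Vec 5 and 0.35 without Vec 6 and Vec 7 together. Its nearest profiles were those of Procr, the endothelial protein C receptor (0.099), Timp1, an inhibitor of matrix metalloproteinases (0.136), and Inhba (0.138). Il33 was the nearest of the 10 genes to Ptgs2 (0.165).

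**Figure D4:**
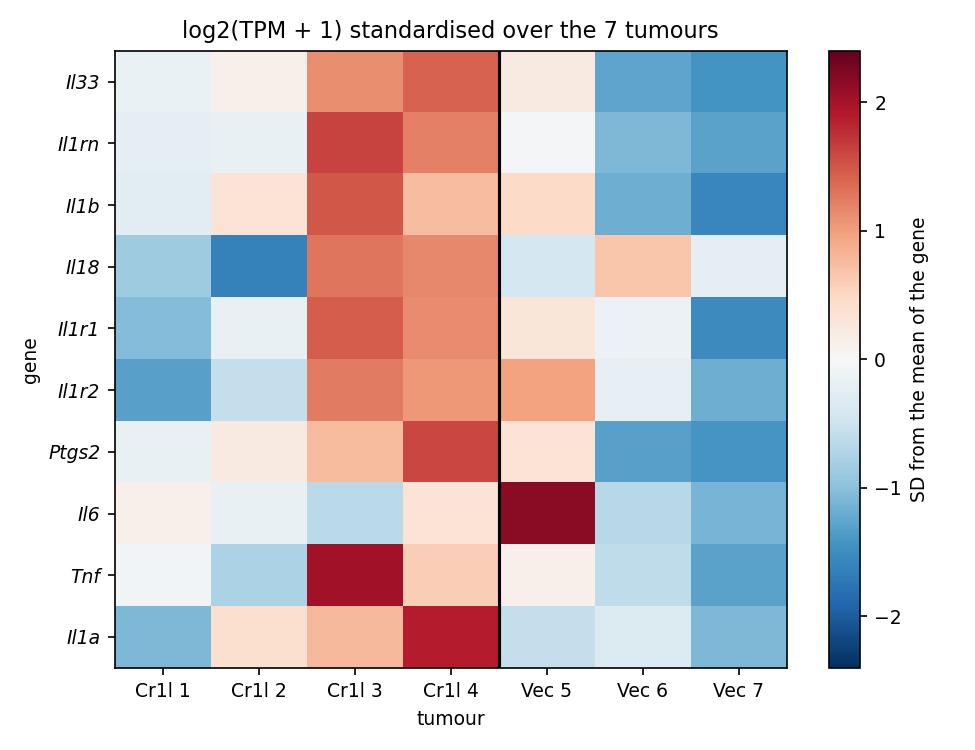
Profile of each gene over the tumours, as log2(TPM + 1) in SD from the mean of that gene, with Cr1l tumours left of the black line and Vec tumours right of it. Red marks values above the mean of the gene and blue values below it. Cr1l 3 and Cr1l 4 are red for 9 of the 10 genes, and the darkest red of Il6 is in Vec 5 (18.15 TPM).

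The sequences before the transcription starts of Il1b, Ptgs2 and Il6 are shown because the first pair peaked in Cr1l 3 or Cr1l 4 and Il6 peaked in Vec 5. They are the 250 bases upstream of the start from RefSeq on GRCm38.p6, whereas the authors' expression values rest on mm39. Il1b lies on the minus strand of chr2:129371140-129371389, Ptgs2 on the plus strand of chr1:150099781-150100030 and Il6 on the plus strand of chr5:30012864-30013113. Capitals mark matches to the motifs TTNNGNAA (C/EBP), TGANTCA (AP-1) and TGACGTCA (the cyclic AMP response element) and to the NF-κB consensus on either strand, and to TATAAA on the gene's strand. Each sequence runs 5′ to 3′.
Il1b: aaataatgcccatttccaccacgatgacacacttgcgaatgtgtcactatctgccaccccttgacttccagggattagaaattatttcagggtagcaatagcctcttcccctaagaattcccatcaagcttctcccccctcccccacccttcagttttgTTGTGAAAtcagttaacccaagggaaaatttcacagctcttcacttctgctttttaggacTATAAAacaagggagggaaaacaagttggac
Ptgs2: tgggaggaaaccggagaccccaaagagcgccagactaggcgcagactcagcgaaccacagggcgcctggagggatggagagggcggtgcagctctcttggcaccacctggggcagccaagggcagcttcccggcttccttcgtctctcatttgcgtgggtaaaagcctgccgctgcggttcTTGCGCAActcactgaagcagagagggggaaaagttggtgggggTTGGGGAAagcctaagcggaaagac
Il6: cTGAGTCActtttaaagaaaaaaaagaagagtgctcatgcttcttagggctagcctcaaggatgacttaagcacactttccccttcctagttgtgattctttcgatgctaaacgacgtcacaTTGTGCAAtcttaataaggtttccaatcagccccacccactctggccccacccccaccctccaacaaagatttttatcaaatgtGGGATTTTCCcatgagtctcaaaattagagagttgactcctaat
The Il6 window held a match to the NF-κB consensus starting 44 bases before the transcription start, a C/EBP match at 128 bases and an AP-1 match at 249 bases. The Il1b window held a C/EBP match at 91 bases and a TATAAA at 31 bases, and that of Ptgs2 held 2 C/EBP matches. RefSeq lists 14 starts for the 10 genes. The NF-κB consensus was matched before 2 of them (Il6 and the second Il1r1 start), AP-1 before 3, C/EBP before 11, TATAAA before 5 and the cyclic AMP element before 0. Counted by gene, these motifs were matched for 2, 3, 8, 4 and 0 of the 10 genes. The windows of Il1rn starts 2 and 3 overlap and share a C/EBP match, at 81 and 161 bases. The counts by start are therefore not independent. Over 32851 promoters of the same length the shares were 7.25%, 6.75%, 36.8%, 7.59% and 1.55% in the same order. No matched motifs overlapped in the 3 windows printed. A match is a string of letters and not a measured site.

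The other genes of these pathways were described by role, from lists chosen with earlier results of these tumours known. The counts of each role include those of the 10 genes that belong to it. Of 102 tested genes outside the 10, 0 passed an adjusted p of 0.05 in either direction by limma, with 19 higher and 3 lower at an unadjusted p under 0.05, where all genes gave 9.49% higher and 6.07% lower. Groups did not overlap for 9 of the 102 that were higher and 5 that were lower, where all genes gave 9.29% and 6.67%. Most genes named below were taken by smallest p, which favours groups that do not overlap. The authors' deposited table called 10 higher and 2 lower of the 110 to which it gave an adjusted p, where all genes gave 4.74% higher and 2.27% lower. Without a filter on low values, the median log2 fold change was 0.37 over the 115 genes measured, against 0.03 over all genes.

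Of 12 tested inflammasome and processing genes, 0 passed in either direction. The median log2 fold change was 0.37 over these 12 and 0.52 over all 14 without a filter, which adds the scarce Nlrp1a and Nlrc4. Casp1, which encodes caspase-1 and was named after its values were seen, stood at 19.42, 18.17, 63.37 and 38.97 TPM in Cr1l tumours and at 57.34, 36.5 and 37.56 TPM in Vec tumours, with Cr1l 1 and Cr1l 2 below all Vec tumours (log2 fold change -0.47, adjusted p = 0.598 by limma). Pycard, the inflammasome adaptor, was at 21.81, 24.71, 89.11 and 66.78 TPM in Cr1l tumours and at 21.25, 24.54 and 18.44 TPM in Vec tumours (0.97, adjusted p = 0.369 by limma). The sensors Nlrp3, Nlrp1b and Mefv had log2 fold changes of 0.99, 1.17 and 1.07 with overlapping groups. Nlrp1a, another sensor, was under the filter and was named after its values were seen. It stood at 0.24, 0.26, 1.42 and 0.90 TPM in Cr1l tumours and at 0.09, 0.12 and 0.08 TPM in Vec tumours, with groups that did not overlap, and the authors' deposited table called it higher (2.82, adjusted p = 0.0225).

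Of 11 genes for adaptors and kinases of the IL-1 receptor, 0 passed in either direction, and the median log2 fold change was 0.08. Irak1, a kinase recruited to the receptor, was lower in every Cr1l tumour, at 71.84, 66.15, 59.22 and 68.53 TPM in Cr1l tumours and 85.94, 83.66 and 82.68 TPM in Vec tumours (-0.34, adjusted p = 0.256 by limma). Its relative Irak2 was at 33.11, 42.16, 44.63 and 39.18 TPM in Cr1l tumours and at 36.92, 22.87 and 19.99 TPM in Vec tumours (0.60, adjusted p = 0.277 by limma). Irak4 and Tab1, an activator of the kinase TAK1, had log2 fold changes of 0.51 and -0.26.

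In the IL-6 family, 0 of 16 tested genes passed in either direction, with a median of 0.39. Il11, an IL-6 relative made by stromal and tumour cells, was higher in every Cr1l tumour, at 1.92, 1.51, 2.50 and 4.23 TPM in Cr1l tumours against 0.66, 0 and 0.38 TPM in Vec tumours, where Vec 6 was listed at 0. Its log2 fold change was 1.37 (adjusted p = 0.203 by limma), and the authors' deposited table called it higher (2.85, adjusted p = 0.0123). The signal-transducing receptor Il6st and the LIF receptor Lifr had log2 fold changes of 0.88 and 1.09. Socs3, a feedback inhibitor induced by IL-6 and named after its values were seen, was highest in Vec 5, the tumour with most Il6. It stood at 27.04, 39.16, 65.32 and 54.98 TPM in Cr1l tumours and at 84.92, 54.64 and 23.86 TPM in Vec tumours (-0.12, adjusted p = 0.907 by limma). Cr1l 3 and Vec 6 had less Il6 (0.76 and 0.72 TPM) than Cr1l 1 (2.39 TPM) and more Socs3. A part of IL-6 in the Socs3 level was not tested.

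Among TNF receptors and their signalling partners, 0 of 12 tested genes passed in either direction. Tnfrsf1b, the TNF receptor of leukocytes, stood at 5.70, 8.06, 56.62 and 40.9 TPM in Cr1l tumours and at 11.71, 4.62 and 3.00 TPM in Vec tumours (1.57, adjusted p = 0.378 by limma). Adam17, the protease that sheds TNF, was higher in every Cr1l tumour, at 36.41, 40.92, 45.62 and 41.52 TPM in Cr1l tumours against 34.92, 25.95 and 24.54 TPM in Vec tumours (0.53, adjusted p = 0.238 by limma). Traf2, a receptor adaptor, also had groups that did not overlap (0.61, adjusted p = 0.251 by limma), and Birc3, an NF-κB-induced ubiquitin ligase, had 1.28.

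Of 13 NF-κB subunits and inhibitors, 0 passed in either direction. Nfkbib, which encodes the inhibitor IκBβ, was lower in every Cr1l tumour, at 53.23, 49.37, 46.11 and 38.37 TPM in Cr1l tumours and 69.19, 59.27 and 77.55 TPM in Vec tumours (-0.55, adjusted p = 0.225 by limma). The authors' deposited table called it lower, at -0.61 (adjusted p = 0.0222). The same table called Bcl3, an atypical IκB protein, as higher, at 1.40 (adjusted p = 0.0417), where limma gave 1.30 (adjusted p = 0.243). Relb and Chuk had log2 fold changes of 0.78 and 0.39.

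Among 13 tested genes of prostaglandin synthesis and its receptors, 0 passed in either direction. Ptgis, the prostacyclin synthase, was higher in every Cr1l tumour, at 2.98, 4.64, 14.77 and 23.84 TPM in Cr1l tumours and 2.69, 0.13 and 0.43 TPM in Vec tumours (2.42, adjusted p = 0.226 by limma). The authors' deposited table called it higher, at 3.47 (adjusted p = 0.00655). Ptges, the inducible prostaglandin E synthase that works with cyclooxygenase-2, stood at 1.33, 4.75, 9.69 and 14.32 TPM in Cr1l tumours and at 1.37, 3.03 and 1.30 TPM in Vec tumours (1.29, adjusted p = 0.352 by limma). The thromboxane synthase Tbxas1 and the receptor Ptger4 had log2 fold changes of 1.35 and 1.09. Pla2g4a, the phospholipase that frees arachidonate and the neighbour of Ptgs2 on chromosome 1, was named after its values were seen and had -0.07.

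Of 22 tested genes that IL-1, IL-6 or TNF are known to induce, 0 passed in either direction by limma, 9 were higher at an unadjusted p under 0.05 and 0 were lower, against 9.49% and 6.07% of all genes. The authors' deposited table called 6 of 24 higher, namely Ccl2, Ccl7, Mmp9, Nos2, Saa3 and Timp1, against 4.74% of all genes. The fold change was above 0 for 17 of the 22, against 55.4% of all genes. The neutrophil chemokine Cxcl5 stood at 4.71, 9.86, 19.53 and 22.35 TPM in Cr1l tumours and at 7.10, 0.52 and 0.47 TPM in Vec tumours (2.32, adjusted p = 0.238 by limma), with Vec 5 above Cr1l 1 alone among the Cr1l tumours. Its relatives Cxcl1 and Cxcl2, named after their values were seen, were highest in Vec 5 (27.28 and 28.52 TPM), with log2 fold changes of 0.32 and -0.17. Ccl7 and Ccl2, which attract monocytes, had groups that did not overlap, with log2 fold changes of 2.69 and 2.50, as did the gelatinase Mmp9 with 1.61. Saa3, an acute-phase gene of macrophages and stroma, was named from the authors' calls and stood at 204.25, 324.13, 1293.21 and 1144.83 TPM in Cr1l tumours and at 248.1, 90.27 and 161.57 TPM in Vec tumours (1.86, adjusted p = 0.279 by limma).

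**Figure D5:**
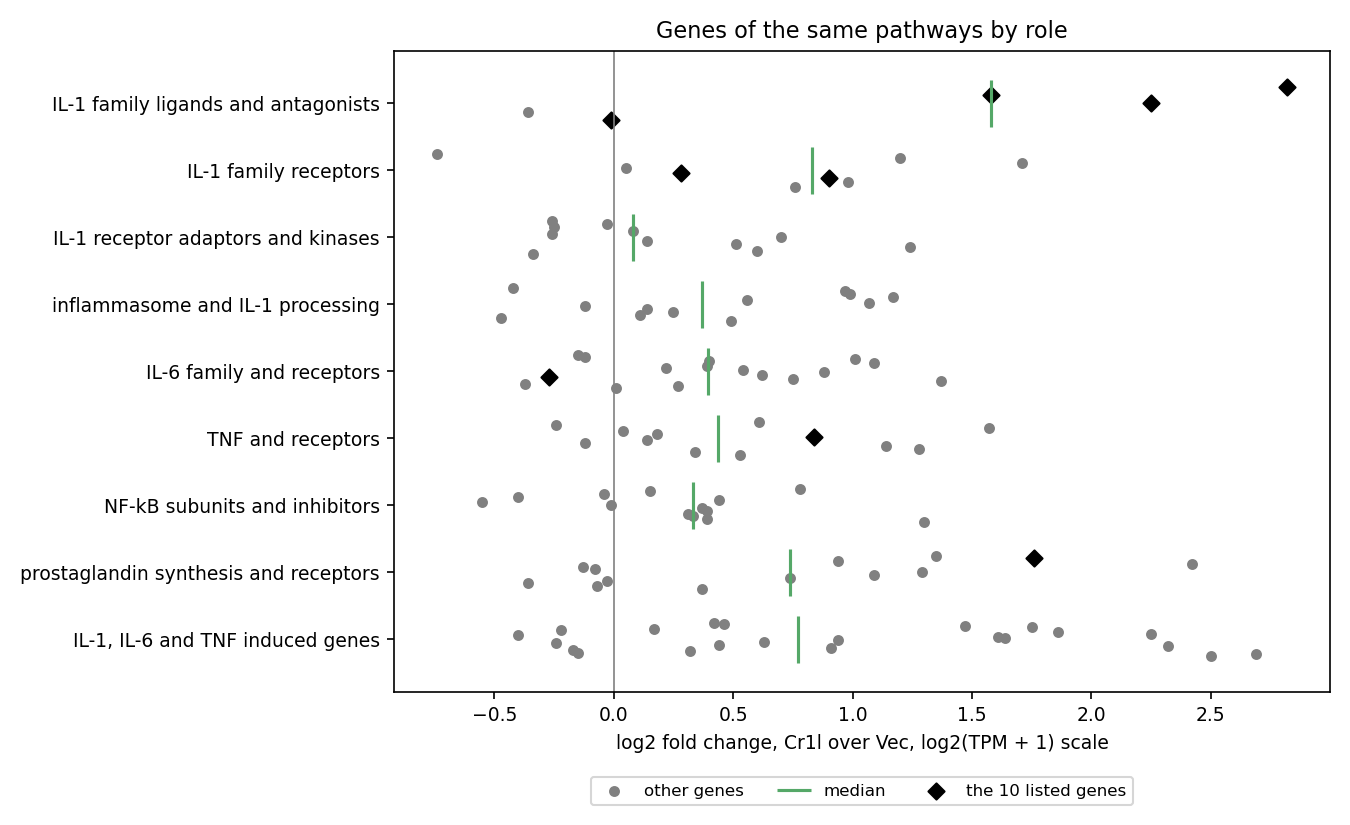
Log2 fold changes of Cr1l over Vec tumours on the log2(TPM + 1) scale for tested genes of each role, with grey dots for other genes, black diamonds for those of the 10 genes that were tested and green lines at the medians of the tested genes. Ligands, prostaglandin genes and induced genes reach 2.82, 2.42 and 2.69, and adaptors and kinases stay between -0.34 and 1.24. The median of the ligands and antagonists was 1.58 over the 5 tested genes, and 0.16 over all 10 measured without a filter.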

How the data were processed

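Bulk RNA of 7 tumours (4 Cr1l, 3 Vec) was analysed, grouped and numbered by the labels, which number the tumours and do not name the mice, so p-values measure the spread between these tumours. Per the labels' protocols, poly(A) RNA was made into libraries without strand, so antisense reads cannot be told apart. The authors used RSEM and DESeq2 with mm39, per the submitters' processing notes. The authors deposited log2 values of TPM + 1, which undone sum to between 993520 and 996031 per tumour. Depth is unknown. The authors' deposited DESeq2 table holds log2 fold changes, p-values, adjusted p-values and a normalized count signal averaged over tumours, per its header. Its numerator was read as Cr1l from the sign of Cr1l (0.57), and 27182 of 28369 identifiers matched a symbol. The deposited repertoire table was not used.

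The 14954 of 28233 genes averaging 1 TPM or more were tested with limma 3.58.1 (R 4.3.3) on log2(TPM + 1), with a variance trend and Benjamini-Hochberg adjustment at 0.05. Fold changes understate those of low genes. Ratios had exact permutation tests. The fit was checked on simulated data. Alternatives were pseudocount, filter, scaling, weights, a macrophage covariate and left-out tumours. Members and lists were chosen with earlier results of these data known. The naming rule took the 10 genes, up to 4 others per list by smallest p and 3 nearest profiles per gene, skipping unnamed and receptor segment genes. One profile near to Il1b is not reported here.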

Additional observations from a re-analysis of the deposited data

How the results depend on the processing

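No paired analysis was possible because the labels do not name the mice and give no pairing of tumours. Whether any tumours shared a mouse is therefore unknown, and all tests treated the 7 tumours as independent. Of the genes tested in each of the 16 limma alternatives, 0 of the 10 passed an adjusted p of 0.05. These were 9 genes in most, 7 with a mean of at least 5 TPM, and 10 with no filter, the one alternative that tested Il1a. Il33, Il1rn, Il1b, Ptgs2 and Tnf kept a positive fold change in all of theirs. The sign turned for Il18 when mitochondrial, globin and immunoglobulin genes were removed (0.02) and without Vec 6 and Vec 7 together (0.22), with -0.23 to 0.27 when 1 tumour was left out. It turned for Il1r1 with the macrophage covariate (-0.26) and without Cr1l 3 and Cr1l 4 together (-0.17). It turned for Il1r2 with that covariate (-1.11), without Vec 6 and Vec 7 (-1.04) and without Cr1l 3 and Cr1l 4 (-0.97), with -0.34 to 0.95 when 1 tumour was left out. Il6 turned with a pseudocount of 0.1 (0.19), and leaving out 1 tumour gave -1.03 to 0.98. The Il1rn to Il1b difference was 0.56 without Vec 6 and Vec 7. The cause was not tested.

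The count of all genes past the threshold was 2, and became 6 with a pseudocount of 0.1, 0 with no filter on low values, 1 with a mean of at least 5 TPM, 10 with median-of-ratios scaling and 4 with the rescaled TPM. It was 14 with arrayWeights, 5 with the macrophage covariate, 6 without Vec 6 and Vec 7 and 0 without Cr1l 3 and Cr1l 4. Leaving out 1 tumour gave 0 to 7, with 0 without Cr1l 1, Cr1l 2 or Vec 5 and 7 without Vec 7. Leaving out Cr1l 3 and Cr1l 4 was chosen after seeing the data. Without read depth, the counting error of the TPM of low genes such as Il1a, Tnf and Il6 cannot be given. For their log2 fold changes the authors' deposited table gave an SE of 0.92, 0.90 and 1.13. Their mean normalized counts there were 13.3, 37.7 and 56.4.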
